A study of Mus musculus with 2 samples.

Results

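The Frizzled receptors are the 10 seven-pass membrane proteins that bind WNT ligands, encoded in the mouse by Fzd1 to Fzd10. Their symbols were matched to NCBI gene numbers in the deposited tables, and all 10 members were found among 41709 listed genes. Whole lungs of C57BL/6 embryos, taken at E14.5 while the airways branch, gave polyadenylated RNA. It was sequenced in 1 library labelled Prmt5 knockdown and in 1 library labelled control. Each library came from 1 pool of 7 lungs. The title of the knockdown library names Shh and Prmt5, and how either gene was altered, and in which cells, is not given in the sources used here. With 1 library per group there was no spread between replicates and no test. Intervals below are 95% counting intervals, which do not cover differences between pools and can be too narrow where reads are PCR copies.

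A Frizzled receptor binds the lipid-bearing WNT ligand through an extracellular cysteine-rich domain and passes the signal to dishevelled proteins. With the co-receptors LRP5 or LRP6 this stabilises beta-catenin, and with ROR, RYK or PTK7 it feeds other branches, among them planar cell polarity, which orients cells within a sheet. In the developing lung, WNT2 and WNT2B from the mesenchyme specify and maintain lung epithelium, and WNT7B from the epithelium drives growth of both layers. By sequence the receptors are commonly grouped as FZD1, FZD2 and FZD7, as FZD5 and FZD8, as FZD4, FZD9 and FZD10, and as FZD3 and FZD6.

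The knockdown library held 25829281 counted reads and the control library 22581490, and 14569 genes had 50 reads or more in 1 library or both and are called measured. A gene was called higher or lower when it reached 50 reads, its ratio was at least 1.5 either way and its interval excluded 1. By this rule of size 20.7% of measured genes were higher and 12.3% lower in the knockdown library, 33.0% in all. Prmt5 itself had 2127 reads in the knockdown library and 2704 in the control library, 1.35-fold lower and not past the rule. Shh had 109 reads in the knockdown library and 1124 in the control library, 10.9-fold lower. The 2 libraries differed widely in marker genes. All 8 liver, all 8 heart muscle and all 6 skeletal muscle markers were higher in the knockdown library, and their summed FPKM was 5169, 3484 and 614 there, against 30.5, 93.6 and 15.5 in the control library. Of these, 4 liver, 3 heart muscle and 2 skeletal muscle markers reached 50 reads in the knockdown library alone, so those could only be counted as measured by being high there. Of 10 lung epithelium markers, 8 were lower (median log2 ratio -2.17) and none was higher, and of 8 lung mesenchyme markers 5 were lower (median -0.97). Each of these 18 lung markers had reads in both libraries, so markers of the labelled tissue were present in both. All measured markers of red blood cells (6), immune cells (5), mesothelium (5), adrenal cortex (6), thymus (4) and of stomach and oesophagus (5) were higher in the knockdown library as well, with medians from 1.43 to 5.78. That count is partly set by the read minimum, since 4 of the thymus, 5 of the adrenal cortex, 3 of the stomach and oesophagus, 2 of the immune and 1 of the red blood cell markers reached it in the knockdown library alone. Other lists were mixed. Smooth muscle had 1 higher and 2 lower of 4 measured markers (median -0.73). Cartilage had 2 higher and none lower of 4 (median 1.33), and kidney 1 higher and 1 lower of 2 (median 0.59). Of these, the 2 higher cartilage markers and 1 kidney marker reached 50 reads in the knockdown library alone.

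Together the Frizzled genes had 11248 reads in the knockdown library and 18434 in the control library, 1.74-fold lower (log2 ratio -0.80, interval -0.83 to -0.76). The lower counts lay mostly in the abundant receptors. Fzd1, Fzd2 and Fzd7, and the scarcer Fzd10, were lower past the rule, Fzd5 and Fzd9 were higher past it, and Fzd3, Fzd4 and Fzd8 did not pass. Fzd6 had under 50 reads in both libraries and was not measured. Thus 4 of the 9 measured members were lower, against 12.3% of measured genes, and 2 were higher, against 20.7%. Fzd9 reached 50 reads in the knockdown library alone, so it was measured through the library in which it is high. In RNA of a whole pool, fewer cells of a type, less RNA per cell and more RNA of other organs cannot be told apart. Markers of liver, heart muscle and skeletal muscle were higher in the knockdown library. Their part in the Frizzled ratios was not tested.

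**Figure D1:**
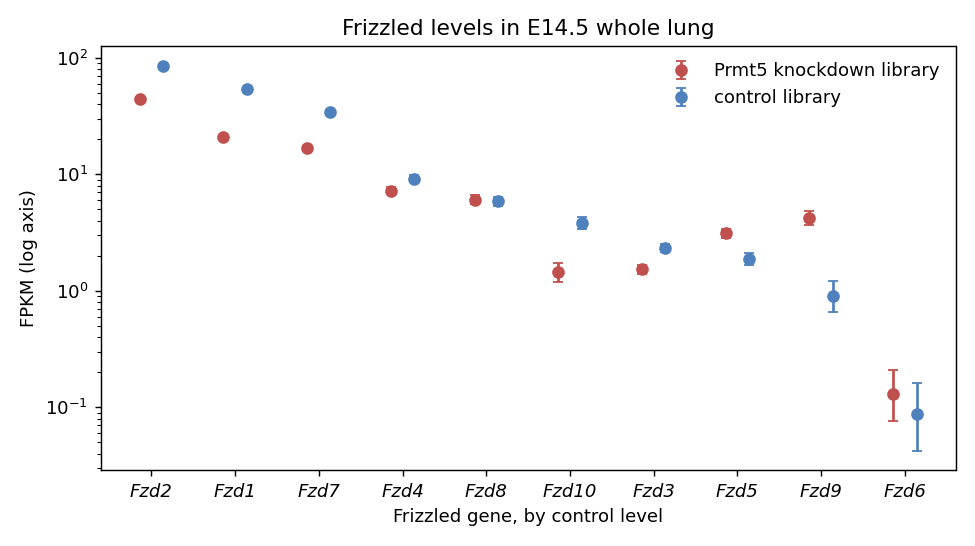
FPKM of each Frizzled gene (vertical, log axis) in the Prmt5 knockdown library and the control library, ordered along the horizontal axis by control level; points are single libraries and bars exact 95% Poisson intervals of the reads. Fzd2, Fzd1 and Fzd7 were the 3 highest in both libraries and lower in the knockdown library, whereas Fzd9 and Fzd5 were higher there.

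The receptors Fzd1, Fzd2 and Fzd7 made up most of the pool. Levels of different genes are given as FPKM, reads scaled to gene length and library total. Fzd2 (NCBI gene 57265, on GRCm38 chromosome 11, 102604431 to 102608058), a receptor needed in mouse for distal lung branching, had 4173 reads in the knockdown library and 6906 in the control library. Its level was 44.5 FPKM in the knockdown library and 84.3 FPKM in the control library, 1.75-fold lower (log2 ratio -0.81, -0.87 to -0.76). It was the most abundant Frizzled in both libraries, above 87.1% of measured genes in the knockdown library and above 93.6% in the control library.

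Fzd1 (NCBI gene 14362, on GRCm38 chromosome 5, 4753839 to 4758216), which can transmit WNT7B signals in cultured cells, had 2360 reads in the knockdown library and 5295 in the control library. Its level was 20.9 FPKM in the knockdown library and 53.6 FPKM in the control library, 2.38-fold lower (log2 ratio -1.25, -1.32 to -1.18). Of all measured genes 3.18% had a lower ratio. Fzd7 (NCBI gene 14369, on GRCm38 chromosome 1, 59482147 to 59486955), a close relative of Fzd1 and Fzd2 that is widely expressed in embryos, had 2085 reads in the knockdown library and 3756 in the control library. Its level was 16.8 FPKM in the knockdown library and 34.6 FPKM in the control library, 1.91-fold lower (log2 ratio -0.93, -1.01 to -0.86).

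The decrease was uneven among these relatives. For 1 Fzd2 transcript per length there were 0.469 of Fzd1 in the knockdown library and 0.635 in the control library, a change of -0.44 on the log2 scale (-0.53 to -0.35) that does not depend on how the libraries are scaled. The ratio of Fzd7 to Fzd2 was 0.377 in the knockdown library and 0.410 in the control library, a change of -0.12 (-0.22 to -0.03). The ratio of Fzd1 was thus below those of both relatives, and Fzd2 and Fzd7 lay nearer each other. Of 8 lung mesenchyme markers 5 were lower, down to -2.06 for Tbx4 (list median -0.97). The other 3 did not pass the rule, with Pdgfra at -0.24 and the abundant collagen genes Col3a1 at 0.22 and Col1a1 at 0.35. Set against the list's median, Fzd2 stood at 0.16, Fzd7 at 0.03 and Fzd1 at -0.28. Set against the lung epithelium median they stood at 1.36, 1.24 and 0.92. The part of these markers in the result was not tested.

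All 3 genes have a single exon, and none of their runs of 50 bases occurred in a transcript of another gene in the GENCODE annotation. Between any of the 10 members no run of 50 bases was shared, so reads of that length or more could not be split within the family. The RefSeq table of GRCm38.p6 holds a promoter for 6 of the 10 members. The upstream bases of Fzd1 (chr5:4758217-4758466, minus strand) and Fzd7 (chr1:59481897-59482146, plus strand), the lower pair, and of Fzd5 (chr1:64737752-64738000, minus strand), which was higher, are shown so that genes with opposite ratios can be compared. Capitals mark GC boxes, GGGCGG on either strand, and the TCF/LEF core CTTTGA on either strand, the site of the beta-catenin partners.
Fzd1: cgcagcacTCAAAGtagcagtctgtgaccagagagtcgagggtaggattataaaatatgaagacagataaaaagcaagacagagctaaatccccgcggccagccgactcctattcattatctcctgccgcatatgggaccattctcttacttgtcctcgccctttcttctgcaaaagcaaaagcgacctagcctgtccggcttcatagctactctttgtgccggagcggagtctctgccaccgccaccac
Fzd7: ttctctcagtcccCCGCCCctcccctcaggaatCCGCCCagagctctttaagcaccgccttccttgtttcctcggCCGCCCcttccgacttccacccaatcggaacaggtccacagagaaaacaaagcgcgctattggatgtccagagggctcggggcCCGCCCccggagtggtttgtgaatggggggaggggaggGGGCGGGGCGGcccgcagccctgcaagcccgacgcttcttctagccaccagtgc
Fzd5: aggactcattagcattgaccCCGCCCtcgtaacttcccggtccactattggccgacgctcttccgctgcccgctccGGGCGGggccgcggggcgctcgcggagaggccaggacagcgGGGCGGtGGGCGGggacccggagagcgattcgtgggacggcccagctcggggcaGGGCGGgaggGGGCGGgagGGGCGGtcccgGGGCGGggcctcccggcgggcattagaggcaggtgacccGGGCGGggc
Fzd1 held no GC box and 1 TCF/LEF core at -242 from the gene start. Fzd7 held 6 GC boxes and Fzd5 held 9, some overlapping one another, and neither held the TCF/LEF core. Over the 250 bases upstream, Fzd4 held 7 GC boxes, Fzd9 1 and Fzd10 1, and none of these held the TCF/LEF core. A GC box occurred in 32.7% and the TCF/LEF core in 13.8% of the 32851 promoters of that length. GC boxes were thus present upstream of genes that were lower (Fzd7, Fzd10), higher (Fzd5, Fzd9) and not past the rule (Fzd4), and a match of letters is not a binding site. The upstream bases of Fzd9 held 42 CpG pairs, more than 99.1% of promoters, and those of Fzd10 held 37, more than 97.8%.

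**Figure D2:**
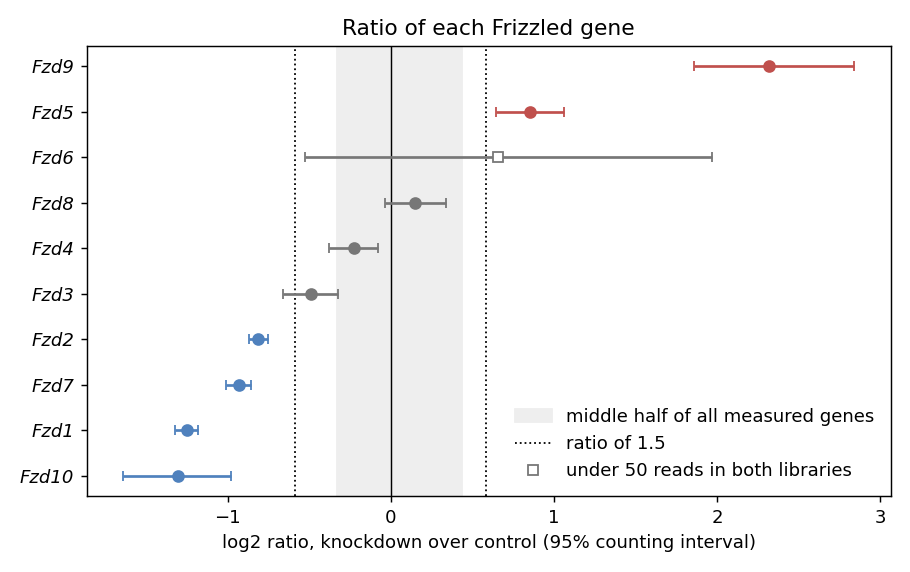
Log2 ratio of knockdown over control (horizontal) for each Frizzled gene (vertical), with 95% counting intervals. Blue points are lower and red points higher past the rule of size, grey points are not past it, the open square is Fzd6 with under 50 reads, dotted lines mark a ratio of 1.5, and the shaded band spans the quartiles of all 14569 measured genes. Fzd10, Fzd1, Fzd7 and Fzd2 lie left of the band, as does Fzd3, which is not past the rule, and Fzd5, Fzd9 and the unmeasured Fzd6 lie right of it.

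Fzd5 and Fzd8, near relatives in sequence, parted. Fzd5 (NCBI gene 14367, on GRCm38 chromosome 1, 64730558 to 64737750), a receptor of gut and endothelium in mouse, had 553 reads in the knockdown library and 289 in the control library. Its level was 3.12 FPKM in the knockdown library and 1.87 FPKM in the control library, 1.80-fold higher (log2 ratio 0.85, 0.64 to 1.06). Fzd8 (NCBI gene 14370, on GRCm38 chromosome 18, 9212856 to 9216201), which acts with Fzd5 in the developing mouse eye, had 523 reads in the knockdown library and 444 in the control library. Its level was 6.05 FPKM in the knockdown library and 5.88 FPKM in the control library, and the interval of its log2 ratio included 0 (0.15, -0.03 to 0.34). The ratio of Fzd5 to Fzd8 was 0.516 in the knockdown library and 0.317 in the control library, a change of 0.70 on the log2 scale (0.42 to 0.98). Of the 50-base runs of Fzd5, 16.6% also lie in Gm38058, a gene on the opposite strand, and the strand setting of the counting is not known here, so reads of Fzd5 are uncertain to that extent. The log2(FPKM + 1) scale, which compresses low genes, put Fzd5 at 0.52, short of the rule.

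The group of Fzd4, Fzd9 and Fzd10 held the family's widest spread. Fzd9 (NCBI gene 14371, on GRCm38 chromosome 5, 135248938 to 135251047), known from bone, skeletal muscle and the nervous system, had 230 reads in the knockdown library and 43 in the control library. Its level was 4.22 FPKM in the knockdown library and 0.902 FPKM in the control library, higher past the rule (log2 ratio 2.32, 1.86 to 2.84). Of measured genes 6.29% had a higher ratio. In the same library skeletal muscle markers (6 of 6 higher, median 5.41) and neuron and glia markers (5 of 6 higher, summed FPKM 44.3 in the knockdown library and 15.3 in the control library) were higher too. No marker of either list was at 0 in either library, and their part in the Fzd9 result was not tested.

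Fzd10 (NCBI gene 93897, on GRCm38 chromosome 5, 128601106 to 128604093), a second receptor that can transmit WNT7B signals in cultured cells, had 111 reads in the knockdown library and 259 in the control library. Its level was 1.44 FPKM in the knockdown library and 3.84 FPKM in the control library, 2.47-fold lower (log2 ratio -1.30, -1.64 to -0.98), the lowest ratio of the family. Fzd9 and Fzd10 exchanged places. There were 2.93 Fzd9 transcripts per Fzd10 transcript by length in the knockdown library and 0.235 in the control library, a change of 3.63 on the log2 scale (3.05 to 4.24). Beside Fzd10, 8 of 10 lung epithelium markers were lower, down to -3.16 for Nkx2-1, and Krt8 (-0.12) and Krt18 (0.11) did not pass the rule. Against the list's median Fzd10 stood at 0.87. The part of these markers in its ratio was not tested.

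Fzd4 (NCBI gene 14366, on GRCm38 chromosome 7, 89404366 to 89410110), the receptor of norrin in blood vessels, had 690 reads in the knockdown library and 762 in the control library. Its level was 7.25 FPKM in the knockdown library and 9.16 FPKM in the control library (log2 ratio -0.23, -0.38 to -0.08), not past the rule. Of 8 endothelium markers 3 were lower and 5 did not pass (median -0.55). Norrin itself, Ndp, was lower past the rule with 32 reads in the knockdown library and 84 in the control library (log2 ratio -1.46, -2.11 to -0.87), and it reached 50 reads in the control library alone. The WNT7 co-receptor gene Adgra2 was also lower (-0.85), whereas Tspan12, whose protein assists FZD4 in norrin signalling, stood at 0.42 and Reck, the partner of Adgra2, at -0.36, both not past the rule. The start of Fzd4 overlaps Tmem135 on the assembly, so reads there are uncertain.

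Fzd3 and Fzd6 are known for planar cell polarity in mouse, in hair patterning and in the guidance of axons. Fzd3 (NCBI gene 14365, on GRCm38 chromosome 14, 65192441 to 65262463) had 506 reads in the knockdown library and 670 in the control library. Its level was 1.54 FPKM in the knockdown library and 2.33 FPKM in the control library, 1.40-fold lower (log2 ratio -0.49, -0.66 to -0.32), short of the rule's 1.5 and past it with total counts as the scale (-0.60). Fzd6 (NCBI gene 14368, on GRCm38 chromosome 15, 39006149 to 39038192) had 17 reads in the knockdown library and 10 in the control library. Its level was 0.131 FPKM in the knockdown library and 0.0882 FPKM in the control library. Its interval ran from -0.53 to 1.97 on the log2 scale, so no difference was detectable with these counts. Of its 50-base runs, 2.41% also lie in Gm26704, an overlapping gene on the opposite strand with 0 reads in both libraries. Reads of Fzd6 are therefore uncertain there. A low count in these tables need not mean a silent gene. Tagln, an abundant gene of smooth muscle, was listed with 4 reads in the knockdown library and 0 in the control library, beside 14908 and 15037 reads of Acta2, another smooth muscle gene.

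The order of levels was the same at the top and changed below. By deposited FPKM, Fzd2 was followed in both libraries by Fzd1, Fzd7, Fzd4 and Fzd8. Below them the order was Fzd9, Fzd5, Fzd3, Fzd10 and Fzd6 in the knockdown library, and Fzd10, Fzd3, Fzd5, Fzd9 and Fzd6 in the control library. Neighbours in the order differed per length beyond their counting intervals with 1 exception, Fzd3 and Fzd10 in the knockdown library, whose ratio of 1.07 had an interval of 0.869 to 1.32. In the control library these 2 genes stood in the other order, with Fzd10 at 1.65 times Fzd3 (1.42 to 1.91). The order rests on the gene lengths behind the deposited FPKM, which are 3685 bp for Fzd4 and 3346 bp for Fzd8. Their longest coding transcripts in GENCODE are 6720 bp and 5974 bp. The places of Fzd4 and Fzd8, and of genes near them, therefore depend on the length taken, which the counting intervals do not cover.

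**Figure D3:**
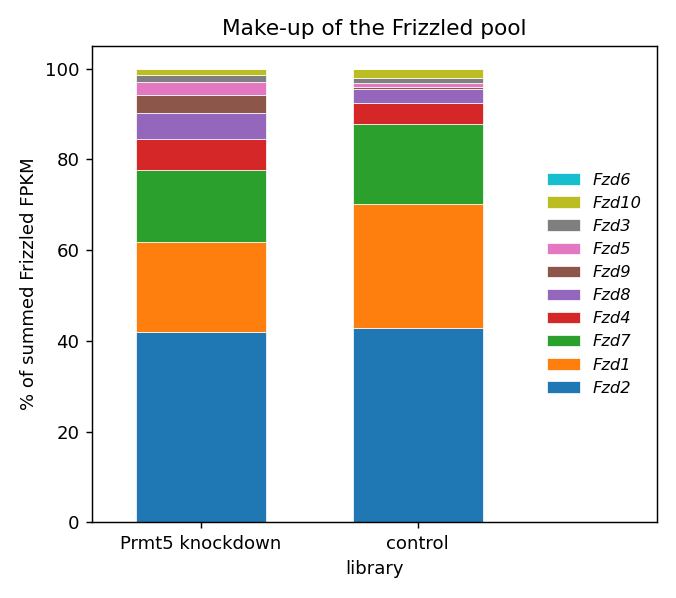
Share of each Frizzled gene in the summed Frizzled FPKM (vertical, percent) in the Prmt5 knockdown library and the control library. The 3 lowest segments, Fzd2, Fzd1 and Fzd7, make up 77.6% of the knockdown bar and 87.8% of the control bar.

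Shares of the summed Frizzled FPKM do not depend on library scaling but do depend on the gene lengths used. Fzd1, Fzd2 and Fzd7 made up 77.6% in the knockdown library and 87.8% in the control library. Fzd2 alone held 42.0% in the knockdown library and 42.9% in the control library. The share of Fzd1 was 19.7% in the knockdown library and 27.3% in the control library. Fzd2 thus kept nearly its place in a smaller pool while Fzd1 gave up part of its own. Fzd5 and Fzd8 together held 8.66% in the knockdown library and 3.94% in the control library. Fzd4, Fzd9 and Fzd10 together held 12.2% in the knockdown library and 7.07% in the control library. In reads, Fzd9 made up 2.04% of all Frizzled reads in the knockdown library (exact binomial interval 1.79% to 2.32%) and 0.233% in the control library (0.169% to 0.314%). The summed FPKM of the family was 106 in the knockdown library and 196.5 in the control library.

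**Figure D4:**
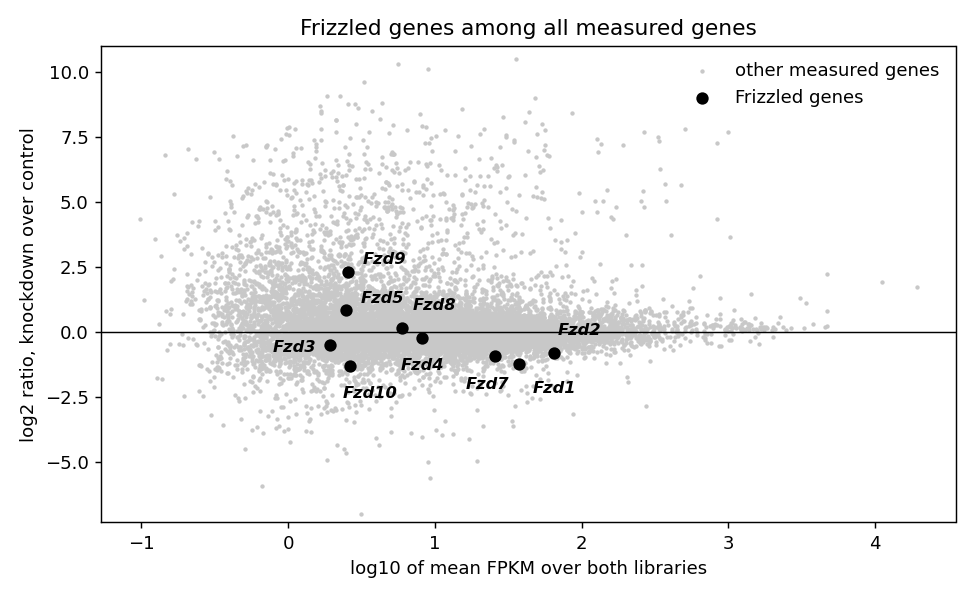
Log2 ratio of knockdown over control (vertical) against the log10 of mean FPKM over both libraries (horizontal) for every measured gene, with the 9 measured Frizzled genes in black. The abundant Fzd1, Fzd2 and Fzd7 lie in the lower part of the cloud, and Fzd9 lies among the higher genes of low level.

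The ratios were also set against transcript GC content and length. Among 10 groups of measured genes ranked by GC content the median log2 ratio ranged from -0.16 in the group richest in GC to 0.03. After removal of the trend with both properties, a step chosen after seeing the data, Fzd1 stood at -1.14, Fzd2 at -0.70, Fzd7 at -0.82, Fzd10 at -1.22, Fzd5 at 1.03 and Fzd9 at 2.52, and each kept its call.

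The ligands and partners of the receptors were described from fixed lists. Of 19 WNT ligands 9 were measured, of which 3 were lower and 2 higher (median log2 ratio -0.02), beside a median of -0.01 for all measured genes. One of the 9 reached 50 reads in the knockdown library alone. The epithelial ligand Wnt7b had 592 reads in the knockdown library and 2915 in the control library (log2 ratio -2.38, -2.51 to -2.26), and the mesenchymal ligand Wnt2 had 740 reads in the knockdown library and 2827 in the control library (-2.02, -2.14 to -1.90). The other mesenchymal ligand named above, Wnt2b, had 1172 reads in the knockdown library and 1236 in the control library (-0.16) and did not pass. Wnt11, a ligand of planar polarity signalling, was lower (-0.84), and Wnt4 (1.40) and Wnt9a (0.83) were higher. Wnt5a, the ligand best known for ROR2 signalling, had 712 reads in the knockdown library and 683 in the control library (-0.02). For the WNT7B receptors of cultured cells, Fzd1 and Fzd10, both ligand and receptor genes were therefore lower in the same library. Markers of lung epithelium (median -2.17) and lung mesenchyme (median -0.97) were lower there too, and their part was not tested.

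**Figure D5:**
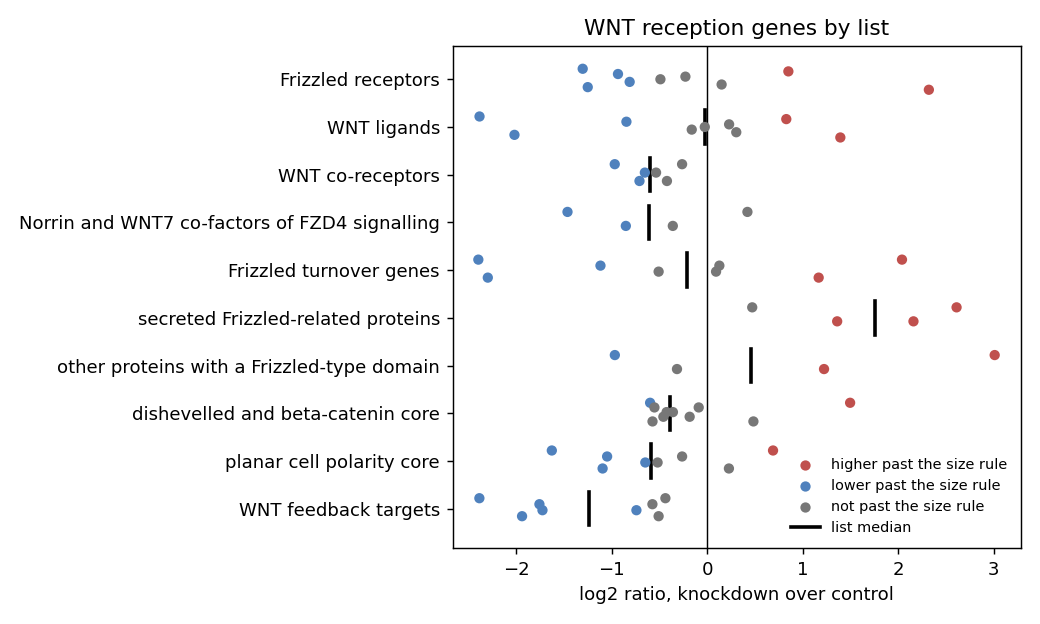
Log2 ratio of knockdown over control (horizontal) of each measured gene in the Frizzled family and in 9 lists of WNT reception genes (vertical); colours give the call by the rule of size and black bars list medians, which are not drawn for the family. Frizzled genes spread from -1.30 to 2.32, co-receptors lie at or below -0.26, and secreted Frizzled-related proteins lie at or above 0.47.

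All 6 co-receptors were measured, and 3 were lower, none higher and 3 not past the rule (median -0.59). Ptk7, a pseudokinase of planar polarity, had 46.3 FPKM in the knockdown library and 97.7 FPKM in the control library (log2 ratio -0.97, -1.02 to -0.92), and Ror2 (-0.71) and Ror1 (-0.65), receptors of WNT5A, were lower as well. Lrp5 and Lrp6, the beta-catenin co-receptors, stood at -0.53 and -0.42. All 6 co-receptors thus had log2 ratios below 0, from -0.97 to -0.26, where the Frizzled genes went both ways.

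Secreted Frizzled-related proteins, which share the ligand-binding domain, can hold WNT outside the cell. Of 5, 4 were measured, 3 were higher and none lower (median 1.76). Sfrp5 and Frzb reached 50 reads in the knockdown library alone, so the count and the median rest in part on genes that are measured because they are high there. Of the 2 genes measured in both libraries, Sfrp1 was higher and Sfrp2 (log2 ratio 0.47) did not pass the rule. Sfrp1 had 46.4 FPKM in the knockdown library and 19.5 FPKM in the control library (log2 ratio 1.36, 1.29 to 1.44). Sfrp5 had 223 reads in the knockdown library and 34 in the control library (2.61), and Frzb had 144 and 30 reads in the same order (2.16). Of 6 other genes with a Frizzled-type domain 4 were measured. Corin, a heart protease that processes natriuretic peptide, was higher (3.01). All 8 heart muscle markers were higher in the same library, and their part in the Corin ratio was not tested. Cpz, a matrix carboxypeptidase, was higher (1.22), and Smo, the hedgehog transducer, was lower (-0.97).

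Genes that set how much receptor stays at the cell surface went both ways. Of 9, 8 were measured, 3 were lower and 2 higher (median -0.21). The ubiquitin ligase genes Rnf43, with 27 reads in the knockdown library and 127 in the control library (log2 ratio -2.30), and Znrf3 (-1.12), whose proteins remove Frizzled from the membrane, were lower. Rnf43 reached 50 reads in the control library alone. Of the R-spondin side, which protects Frizzled from them, Lgr6 was lower (-2.40) and Lgr4 (1.17) and Rspo3 (2.04) were higher. Rnf43 and Znrf3 are also WNT targets. Of 8 WNT feedback targets 5 were lower and none higher (median -1.23), with Axin2 at 559 reads in the knockdown library and 1743 in the control library (-1.72), Sp5 at -2.38, Tcf7 at -1.94 and Lef1 at -1.76. Lung epithelium markers (8 of 10 lower) were lower in the same library, and their part was not tested. The part of WNT signalling in these ratios was not tested either.

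Inside the cell, of 10 dishevelled and beta-catenin genes 8 did not pass the rule (median -0.39). Dvl2 was higher, with 411 reads in the knockdown library and 137 in the control library (2.82-fold, log2 interval 1.22 to 1.79), and Apc, a scaffold of the beta-catenin destruction complex, was lower (-0.60). Dvl1 (-0.09) and Dvl3 (-0.57), at 28.4 and 28.2 FPKM in the knockdown library and 32.5 and 45.3 FPKM in the control library, were far above Dvl2, at 2.71 FPKM in the knockdown library and 1.03 FPKM in the control library. Of 9 planar polarity genes 8 were measured, 4 were lower and 1 higher (median -0.58). Celsr1 (-1.63), Celsr2 (-1.09), Vangl2 (-1.05) and Scrib (-0.65) were lower and Vangl1 (0.69) higher, while their receptor Fzd3 (-0.49) did not pass.

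Likeness to other WNT genes could be measured only by 1 difference between 2 libraries. Among 61 measured genes of the lists, Frzb (2.16), Rspo3 (2.04) and Sfrp5 (2.61) lay nearest to Fzd9 (2.32) in log2 ratio. Of these, Frzb and Sfrp5, like Fzd9 itself, reached 50 reads in the knockdown library alone, so they were among the genes compared only because they are high there. Ndp (-1.46), Znrf3 (-1.12) and Celsr2 (-1.09) lay nearest to Fzd10 (-1.30).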

How the data were processed

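The labels' protocols name TRIZOL for RNA extraction and a NEBNext Ultra kit for the libraries. The tools TopHat2 2.0.12, Bowtie2 2.2.3 and HTSeq 0.6.1 and the build mm10 were used, per the submitters' processing notes. The annotation, strand setting and treatment of multiply mapped reads are not known here. The authors deposited raw read counts per gene, and FPKM values. Dividing each deposited FPKM into its count and library total returned a whole-number length (tolerance 0.001 bp) for 100% of 22831 genes detected in both libraries. The 138 entries that carry no NCBI number took 0.0748% of knockdown reads and 0.0783% of control reads and stayed in the totals. RefSeq genes of GRCm38.p6, the patched assembly of mm10, gave symbols for 40269 genes.

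Library scaling used TMM in edgeR 4.0.16 under R 4.3.3 (factor 0.963 for knockdown, 1.04 for control), and ratios carried a prior count of 0.5. Ratios have exact Clopper-Pearson intervals, from both counts given their sum, and levels exact Poisson intervals. No p-value was computed. The rule of size was run on simulated counts with counting error alone. Such counts hold no differences between pools, so the run says nothing about those. Alternatives were size factors from DESeq2 1.42.0, total counts with and without other organs' markers, another prior count, log2 FPKM with pseudocounts 0.1 and 1, other read minima, a ratio of 2, other references and, added after seeing the data, removal of the GC and length trend. Named genes were all members, Prmt5, Shh, at most 4 per list past the rule by the interval bound nearest to 1, and those nearest to Fzd9 and Fzd10. Wnt5a, Lrp5, Lrp6, Dvl1, Dvl3, Tspan12, Reck, Vangl1, Nkx2-1, Krt8, Krt18, Tbx4, Pdgfra, Col1a1, Col3a1, Acta2, Tagln, Sfrp2 and Musk were named after their values were seen. So were Wnt2b and Wnt9a. Members and lists were chosen with earlier results of these data known. A planned comparison of the receptor proteins was not made.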

Additional observations from a re-analysis of the deposited data

How the results depend on the processing

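No paired analysis was possible because each group has 1 library, and leaving out a replicate was not possible either. Over 7 other scalings, priors and corrections, all 10 members kept their direction. Fzd1 ranged from -1.36 to -1.14 on the log2 scale, Fzd2 from -0.92 to -0.70, Fzd7 from -1.04 to -0.82, Fzd10 from -1.41 to -0.99 and Fzd9 from 1.46 to 2.52. Under these settings 2 calls changed. Fzd3 passed as lower with total counts (-0.60), where 2436 of 14569 measured genes were lower. Fzd5 did not pass with log2(FPKM + 1) (0.52), which left 1 higher member, beside 2132 higher genes. Total counts shifted all ratios by -0.11. A ratio of 2 left 1 higher and 2 lower members, beside 2040 higher and 703 lower of 14569 measured genes. A minimum of 200 reads left 1956 higher and 1265 lower of 11678 measured genes. Higher genes were 62.7% of those called, against 52.3% on the scale of totals, 53.0% for FPKM plus 0.1, 55.8% for FPKM plus 1, and 74.4% at a ratio of 2.

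Setting members against another reference moved them most. Against the lung epithelium median, the lung mesenchyme median and the summed Frizzled reads in turn, Fzd5 stood at 3.02, 1.82 and 1.65. Fzd6 stood at 2.83, 1.62 and 1.45, and Fzd9 at 4.50, 3.29 and 3.12. These members kept their direction and call, and the other members, whose direction or call changed, follow. Relative to the lung epithelium median the values were 0.92 for Fzd1, 1.36 for Fzd2, 1.68 for Fzd3, 1.95 for Fzd4, 1.24 for Fzd7, 2.33 for Fzd8 and 0.87 for Fzd10. Relative to the lung mesenchyme median they were -0.28 for Fzd1, 0.16 for Fzd2, 0.48 for Fzd3, 0.74 for Fzd4, 0.034 for Fzd7, 1.12 for Fzd8 and -0.34 for Fzd10. Relative to the summed Frizzled reads they were -0.45 for Fzd1, -0.014 for Fzd2, 0.31 for Fzd3, 0.57 for Fzd4, -0.14 for Fzd7, 0.95 for Fzd8 and -0.51 for Fzd10. These shifts follow from subtracting a lower reference. The WNT ligand median turned to 0.0045 with DESeq2 size factors, 0.27 at 10 reads and 0.31 without a filter, the cartilage median (1.33) to -0.012 at 200 reads, and the kidney median (0.59) to -2.36 at 10 reads and -1.21 without a filter. The thymus list had no gene left at 200 reads. Taken by reads in place of FPKM, 18 member shares moved outside their counting intervals and 2 did not. By reads Fzd2 held 37.1% in the knockdown library and 37.5% in the control library. Fzd3 held 4.50% and 3.63% of reads in the same order, against 1.45% and 1.19% of summed FPKM. With 10 to 50 reads, as for Fzd6 and control Fzd9, counting error alone limits what can be read.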

Other observations

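The balance of receptors and their secreted relatives differed between the libraries. Summed over the 5 genes, secreted Frizzled-related proteins had 217 FPKM in the knockdown library and 148 FPKM in the control library, whereas the 10 Frizzled genes had 106 FPKM in the knockdown library and 196.5 FPKM in the control library. Secreted relatives were thus above the receptors in the knockdown library and below them in the control library. Sfrp2, with 163 FPKM in the knockdown library and 127 FPKM in the control library, held most of the secreted sum and did not pass the rule of size (log2 ratio 0.47).

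Among ligands too scarce to be measured, Wnt9b had 36 reads in the knockdown library and 1 in the control library (log2 interval 2.52 to 10.43), and Wnt16 had 38 reads in the knockdown library and 1 in the control library (2.60 to 10.50). Both were chosen after their values were seen. Musk, the receptor kinase of the neuromuscular junction, whose extracellular part carries a Frizzled-type domain, had 41 reads in the knockdown library and 3 in the control library (2.04 to 6.02). Marker genes of skeletal muscle were higher in the same library, and their part in the Musk counts was not tested.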
